A study of Mus musculus with 12 samples.

Results

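CSH, which the labels name as a blockade of the annexin A1 receptor, was added to tumour cell medium on RAW264.7, an established macrophage-like cell line from mouse, and the comparison here sets those cells beside cells in the same medium without it. Its members were chosen by the array titles alone and are 6 of the 12 arrays of the study: 3 of SCR medium with CSH (replicates 1, 2 and 4) and 3 of SCR medium (replicates 1, 3 and 4). SCR medium was conditioned by SCR PyMT-41C cells and made up 50% of the culture medium for 24 h. The study's other groups, used below only as a reference, were normal medium (replicates 2, 3 and 4) and KO medium, conditioned by JMJD6-KO PyMT-41C cells (replicates 1, 2 and 3). All 4 groups are 1 cell line, and the labels name neither cells given CSH in normal medium nor a vehicle control, so an effect of CSH on the medium's signals and an effect of CSH by itself cannot be told apart. The labels do not state that replicates came from separate cultures. The p-values therefore reflect only how far these samples spread, and that spread may be technical.

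Annexin A1 is a calcium-dependent phospholipid-binding protein that cells can secrete. Outside the cell it binds formyl peptide receptors, G protein-coupled receptors of phagocytes that act through Gi proteins, phospholipase C beta, phosphoinositide 3-kinase gamma and Rac, and that are known for steering chemotaxis, for oxidase activation and, with annexin A1, for limiting inflammation. A blocker of these receptors would be read in an expression array only through genes whose RNA responds to that signalling.

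Levels are RMA signals on the log2 scale, and differences are means with CSH minus means without it, each with its limma standard error (SE). The 6 array medians lay between 5.40 and 5.52, and their number limits the precision. Of 10 macrophage markers, 9 were tested and all 9 stood above a level of 6 on every one of the 6 arrays, with a list mean of 12.15 to 12.29 in SCR medium and 12.13 to 12.39 with CSH. The 10 mammary epithelial or tumour cell markers had list means of 5.07 to 5.14 in both groups, near the array medians, and Krt14, the highest of them, stood at 5.70. Fibroblast, T cell and B cell markers also had no member above 6 on all 6 arrays, while 2 of 6 neutrophil markers, led by S100a8 at 7.41, and 3 of 6 dendritic cell and 3 of 6 osteoclast markers were above 6 on all 6 arrays. The root mean square difference over genes was 0.218 between SCR replicates 1 and 3, 0.153 to 0.173 between the other SCR pairs and 0.157 to 0.176 between CSH arrays.

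No gene passed the test with CSH. Of 18178 genes tested by limma, 0 (0.0%) had a Benjamini-Hochberg adjusted p below 0.05, and 1133 (6.23%) had an unadjusted p below 0.05, where 909 would make 5%. Of these, 742 (4.08%) stood higher with CSH and 391 (2.15%) lower, a split of 65.5% higher that was 44.9% after quantile normalization of the arrays (663 of 1475) and 48.2% without SCR replicate 3. All 3 arrays with CSH lay above the 3 SCR arrays for 998 genes (5.49%) and below them for 562 (3.09%), 1560 (8.58%) in all. With 3 arrays a group, such separation also arises often between groups that do not differ, so this count by itself is no sign of an effect. The smallest adjusted p, 0.0611, belonged to Cahm, a long noncoding RNA gene.

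The data set limits on how far the signals of single genes could differ with CSH. The 95% confidence interval of the difference lay wholly within 1.5-fold in either direction (a log2 difference of 0.585) for 17866 genes, 98.3% of those tested, and within 2-fold for 18168 (99.94%). The farther bound of the interval was 0.235 for the median gene, 1.18-fold, and 0.397, 1.32-fold, at the 90th percentile. These limits hardly depended on level, since the share within 1.5-fold ran from 98.1% to 98.5% over 4 bins of genes ordered by level. The lowest bin covered levels of 4.65 to 6.31, around the array medians. Whether signals so low follow the RNA was not tested, so for that bin the limits concern the signal alone. Only a gene with a larger difference could have been called by itself: at the median SE of 0.0775, a lone gene needed 0.624, or 1.54-fold. In KO medium against the same SCR arrays, 49 genes were called at this threshold, and 53 differed by at least 1.5-fold and 13 by at least 2-fold, where the counts with CSH were 0, 13 and 0. SCR medium against normal medium gave 6387 called genes and 560 of at least 2-fold. These comparisons share the SCR arrays and are given side by side only.

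**Figure D1:**
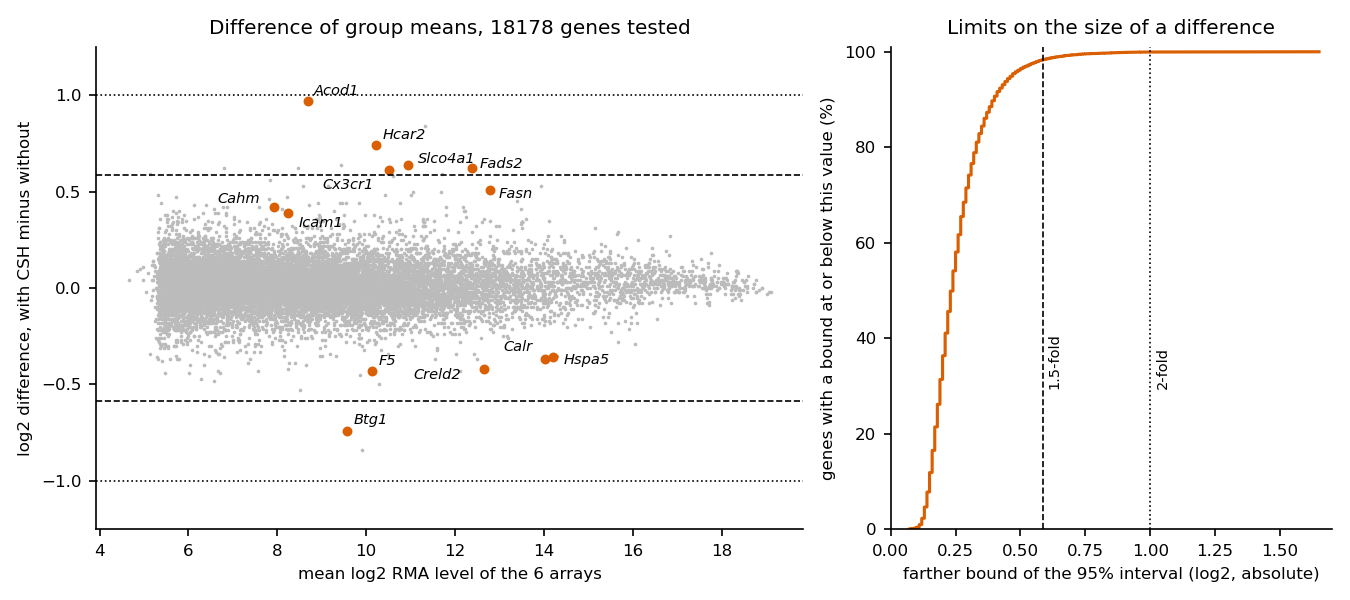
Left, the difference of the group means (with CSH minus without, log2) of each of 18178 genes against its mean log2 level on the 6 arrays, with dashed lines at 1.5-fold and dotted lines at 2-fold; right, the share of genes (%) whose farther 95% interval bound lies at or below each size. Of the genes, 13 lie past a dashed line and 0 past a dotted one, and 98.3% have their whole interval within 1.5-fold.

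For 10 genes the interval reached 2-fold, so a difference of that size was not excluded by these arrays. Among those with gene names were Acod1, the itaconate-producing enzyme of activated macrophages, Hcar2, a Gi-coupled receptor for hydroxy acids, Cx3cr1, the fractalkine receptor, the actin-binding gene Avil and the early response gene Fos. For Fos, which differed by -0.13 (SE 0.40), the wide interval came from the KO arrays that the fit pools: KO replicate 3 stood at 9.58, while the 6 arrays compared lay between 6.83 and 7.33. For the other 4 the CSH or SCR arrays themselves were far apart. Acod1 read 7.91, 8.18 and 8.50 in SCR medium and 9.08, 10.02 and 8.41 with CSH, a difference of 0.97 (SE 0.31, 95% interval 0.31 to 1.64, adjusted p = 0.686). Its groups overlapped, and the difference was 0.55 without CSH replicate 2 and 1.35 without CSH replicate 4. CSH replicate 2 was also the highest array for Hcar2, at 11.19 against 10.54 and 10.08 on the other CSH arrays (difference 0.74, 0.45 without it), and for Cx3cr1, at 11.67 against 10.45 and 10.33 (0.61, 0.18 without it). These genes were chosen after their values were seen, for the size of their difference.

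The leading genes described here were those with the smallest p and those that differed most among 763 genes. These 763 had an unadjusted p below 0.05 and no overlap between the groups, 510 of them higher and 253 lower. Predicted genes, microRNAs, small nucleolar RNAs and pseudogenes were left out of the choice. They made up 8 of the 10 genes with the smallest p, and only 378 of the 763 were of other classes. Cahm (chr17:10319919-10321141, GRCm38.p6) read 7.79, 7.65 and 7.70 in SCR medium and 8.14, 8.11 and 8.15 with CSH. Each group was tight and they lay well apart, with a difference of 0.42 (SE 0.05, 95% interval 0.30 to 0.54). Its level was 8.82 in normal medium and 7.65 in KO medium, so the CSH arrays lay between normal medium and the other conditioned media. Btg1, an antiproliferative gene that is induced as cells leave the cycle (chr10:96617001-96622813), read 9.94, 9.71 and 10.15 in SCR medium and 9.26, 9.33 and 9.0 with CSH. The groups did not overlap, and the difference was -0.74 (SE 0.12, 95% interval -0.99 to -0.48, adjusted p = 0.207). Each array left out kept it between -0.85 and -0.63. Btg1 stood at 8.66 in normal medium and 10.50 in KO medium. The family members Btg2 and Btg3 differed by 0.15 and -0.18, so the 3 genes did not stand on 1 side.

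Genes of fatty acid synthesis and desaturation were among those that led the comparison. Fads2, the delta-6 desaturase of polyunsaturated fatty acids (chr19:10062765-10101503), read 12.11, 11.79 and 12.29 in SCR medium and 12.55, 13.01 and 12.48 with CSH. All CSH arrays were above all SCR arrays, by 0.62 on average (SE 0.16, 95% interval 0.27 to 0.96, adjusted p = 0.621). Fasn, fatty acid synthase, read 12.58, 12.41 and 12.62 against 13.03, 13.42 and 12.70, a difference of 0.51 (SE 0.16, adjusted p = 0.711) that was 0.33 without CSH replicate 2. The 3-hydroxyacyl-CoA dehydratase gene Hacd2 differed by 0.32 (SE 0.07, adjusted p = 0.54), with 12.35, 12.26 and 12.32 against 12.55, 12.76 and 12.59. Fads1, the delta-5 desaturase, stood higher by 0.24 (SE 0.08), also without overlap. On the other side, the retinol and steroid dehydrogenase gene Dhrs9 differed by -0.32 (SE 0.07, adjusted p = 0.54), with 11.69, 11.74 and 11.85 against 11.50, 11.49 and 11.33, and Cd36, a fatty acid and scavenger receptor, by -0.30 (SE 0.10). Over the whole list of fatty acid and lipid metabolism, 25 of 38 tested members stood higher and 13 lower, with a median of 0.052. Over all genes tested, 9980 stood higher and 7924 lower, with a median of 0.01. The list's median was 0.007 without SCR replicate 3 and 0.096 without SCR replicate 1. In the list, 6 members (15.8%) lay higher without overlap and 4 (10.5%) lower, where the shares over all genes were 5.49% and 3.09%, and 0 passed the adjusted threshold.

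In cholesterol synthesis, 13 of 17 tested genes stood higher and 4 lower, with a median of 0.073 that ran from 0.030 without SCR replicate 3 to 0.130 without SCR replicate 1. Pmvk, phosphomevalonate kinase, read 7.53, 7.41 and 7.53 in SCR medium and 7.66, 7.74 and 7.68 with CSH, a difference of 0.20 (SE 0.07, adjusted p = 0.715). Dhcr7, which makes the last step to cholesterol, differed by 0.18 (SE 0.08) and Sc5d, the lathosterol oxidase, by 0.16 (SE 0.06). In all, 5 of the 17 (29.4%) lay higher without overlap and 0 lower, beside 5.49% and 3.09% of all genes. The intervals of all 17 were within 1.5-fold, as were those of 98.3% of all genes.

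**Figure D2:**
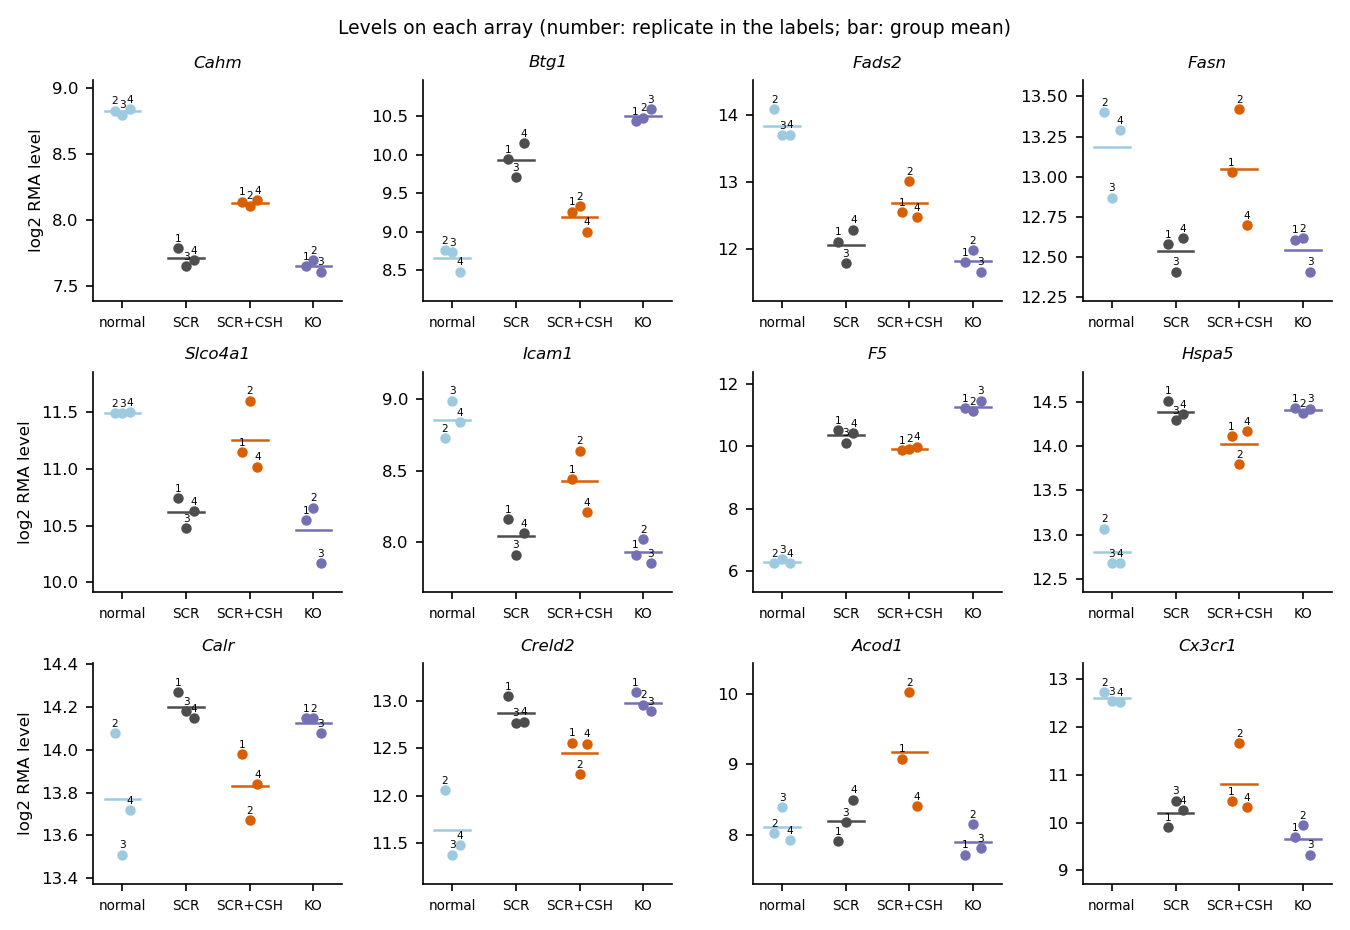
Log2 RMA levels of 12 genes on each of the 12 arrays, by medium; each point is 1 array with its replicate number, and the bar is the mean of 3 arrays. The CSH arrays of Cahm, Btg1, Fads2, Fasn, Slco4a1, Icam1, F5, Hspa5, Calr and Creld2 do not overlap those of SCR medium, while Acod1 and Cx3cr1 overlap and are highest on CSH replicate 2.

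The other genes that stood higher without overlap included transporters, inflammatory genes and genes of neither kind. Slco4a1, an organic anion transporter (chr2:180456226-180474853), read 10.74, 10.48 and 10.63 in SCR medium and 11.15, 11.60 and 11.02 with CSH, a difference of 0.64 (SE 0.14, adjusted p = 0.621). It stood at 11.49 in normal medium. Icam1, the adhesion molecule that NF-kB induces, read 8.16, 7.91 and 8.06 against 8.44, 8.64 and 8.21 (0.39, SE 0.11, adjusted p = 0.648). The chemokine gene Ccl3 differed by 0.45 (SE 0.14, adjusted p = 0.667), with 12.92, 13.24 and 13.34 against 13.73, 13.70 and 13.43. Tnfsf9, the ligand of the costimulatory receptor 4-1BB, differed by 0.34 (SE 0.11) and Wfdc17 by 0.56 (SE 0.14). Fkbp11, a prolyl isomerase of the secretory pathway, differed by 0.44 (SE 0.11) and Arfgef3 by 0.42 (SE 0.12). Rab26os differed by 0.59 (SE 0.13, adjusted p = 0.553). The olfactory receptor gene Olfr1122 also differed by 0.59 (SE 0.15), at low mean levels of 4.83 in SCR medium and 5.42 with CSH. For Slco4a1, Icam1, Wfdc17, Fkbp11 and Arfgef3 the smallest difference came without CSH replicate 2, at 0.47, 0.28, 0.40, 0.36 and 0.30. The NF-kB list as a whole had 18 of 21 tested members higher and 3 lower, with a median of 0.050. Only Icam1 and Relb (9.52%) lay higher without overlap, beside 5.49% of all genes. Without SCR replicate 3 the list had 11 members higher and 10 lower, with a median of 0.025. Cytokines and chemokines were divided, 11 higher and 10 lower of 21, with a median of 0.023 that turned to -0.042 without CSH replicate 1. Tnf differed by 0.25 (SE 0.16), or 0.04 without CSH replicate 2. Cxcl2 differed by -0.08 (SE 0.21), and by 0.07 with the replicate number as a block.

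With predicted genes, microRNAs, small nucleolar RNAs and pseudogenes set aside, Btg1 led the genes lower without overlap. A microRNA gene among those set aside differed by more, -0.84 (SE 0.20), also without overlap. After Btg1 came the mitochondrial lysine tRNA gene mt-Tk (-0.50, SE 0.14) and Phxr4 (-0.48, SE 0.18). Next was Clec4a3, a myeloid C-type lectin (-0.45, SE 0.15, and -0.28 without CSH replicate 2). F5, coagulation factor V (chr1:164151835-164220277), read 10.52, 10.11 and 10.42 in SCR medium and 9.87, 9.92 and 9.98 with CSH, a difference of -0.43 (SE 0.11, adjusted p = 0.621). The CSH arrays were close together, and the spread was in the SCR arrays. In normal medium F5 stood at 6.31 and in KO medium at 11.26, and SCR medium differed from normal medium by 4.04, beside -0.43 with CSH. Nos1, a nitric oxide synthase gene, differed by -0.39 (SE 0.10) and the zinc transporter gene Slc39a10 by -0.37 (SE 0.09). Vegfa, the angiogenic growth factor, differed by -0.19 (SE 0.07), with 13.98, 14.07 and 14.24 against 13.95, 13.92 and 13.86; without SCR replicate 4 it was -0.12.

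No gene of the annexin A1 receptor pathway passed, as no gene did among all 18178 (0.0%), and its members are given by role. Anxa1 itself (chr19:20373434-20390671) read 10.66, 10.69 and 10.55 in SCR medium and 10.44, 10.65 and 10.52 with CSH, a difference of -0.10 (SE 0.07, 95% interval 0.842-fold to 1.04-fold, adjusted p = 0.892). Of the formyl peptide receptor genes, Fpr1 and Fpr2 were not analysed here, and Fpr-rs3, Fpr-rs4, Fpr-rs6 and Fpr-rs7 stood at 3.90 to 5.10 on these arrays, below the array medians. The level of the receptors that CSH is said to block was therefore not measured here. Downstream, the Gi alpha subunit genes Gnai2 and Gnai3 differed by -0.02 and -0.07, with intervals of -0.16 to 0.12 and -0.21 to 0.07. The beta subunit gene Gnb1 read 13.56, 13.47 and 13.47 against 13.50, 13.35 and 13.36 (-0.10, SE 0.05). For the phospholipase C genes, Plcb2 differed by 0.14 (SE 0.15), Plcb3 by 0.08 and Plcb4 by -0.11. Pik3cg, the catalytic subunit of phosphoinositide 3-kinase gamma, differed by -0.02 (SE 0.09), and its regulatory subunit genes Pik3r5 and Pik3r6 by 0.04 and 0.03. Among effectors, Rac1 and Rac2 differed by -0.07 and 0.02 and the exchange factor gene Vav1 by 0.14 (SE 0.08). Pla2g4a, the phospholipase A2 that annexin A1 is known to inhibit, differed by -0.20 (SE 0.14, adjusted p = 0.889), with 13.35, 13.05 and 13.10 against 13.10, 12.69 and 13.11; it was -0.06 without CSH replicate 2. The RGS genes, which shorten G protein signals, stood on both sides. Rgs19 differed by 0.15 (SE 0.07) and Rgs10 by 0.11 (SE 0.06). Rgs2 read 8.89, 8.85 and 8.89 against 8.56, 8.74 and 8.58, the only pathway member whose arrays did not overlap. That made 3.03% of the pathway lower without overlap and 0.0% higher, beside 3.09% and 5.49% of all genes. The difference of -0.25 in Rgs2 had an SE of 0.23, since the fit pools the spread of all 4 groups. Of the 33 tested pathway genes, 14 stood higher and 19 lower, with a median of -0.017. Single arrays turned this: the median ran from -0.048 without CSH replicate 1 to 0.027 without CSH replicate 4, and without SCR replicate 4 the counts were 19 higher and 14 lower. For 31 of the 33 the interval was within 1.5-fold, beside 98.3% of all genes.

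The annexin family stood mostly lower, 7 of 9 tested genes, with a median of -0.097. It was -0.048 without CSH replicate 1, and with array weights -0.020, with 5 genes lower and 4 higher. Anxa2, which binds S100A10 at the membrane and promotes plasmin formation (chr9:69453683-69491792), read 13.31, 13.28 and 13.33 in SCR medium and 13.10, 12.92 and 13.12 with CSH. The groups did not overlap, with a difference of -0.26 (SE 0.07, 95% interval -0.41 to -0.11, adjusted p = 0.635). S100a10, its partner, differed by -0.04 (SE 0.06). No other annexin gene separated the groups: Anxa4 and Anxa9 differed by -0.11 each and Anxa3 by 0.10. So 1 of 9 (11.1%) lay lower without overlap and 0 higher, beside 3.09% and 5.49% of all genes.

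**Figure D3:**
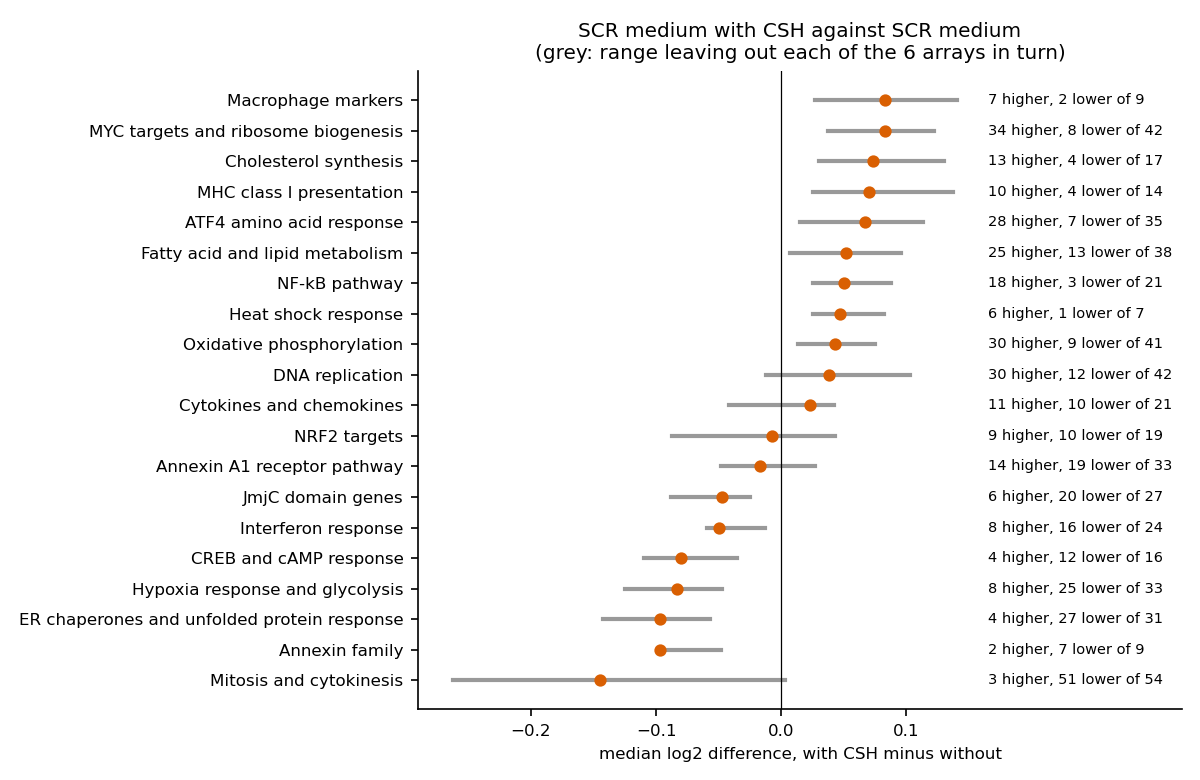
Median log2 difference of the tested members of 20 gene lists, SCR medium with CSH minus SCR medium; the point is the median over all 6 arrays, the grey bar its range when each array is left out in turn, and the text counts members higher and lower. The ER chaperone list stays below 0 and the MYC target list above 0 over the whole bar, while the bar of the mitosis list reaches from -0.262 to 0.003.

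Chaperones of the endoplasmic reticulum stood mostly lower with CSH. They fold secreted and membrane proteins, and their genes are switched on together in the unfolded protein response by ATF6 and XBP1, which act with NF-Y at a promoter element known as the ER stress element. Of 31 tested genes of this list, 27 stood lower and 4 higher with CSH, with a median of -0.097; 8 (25.8%) lay lower without overlap and 0 higher, beside 3.09% and 5.49% of all genes. An unadjusted p below 0.05 was found for 9 (29%), all lower, beside 2.15% of all genes lower at that p. None passed the adjusted threshold. Fkbp11, the secretory pathway isomerase named above, is not among these tested genes and stood higher by 0.44 without overlap. The 300-base RefSeq promoters of GRCm38.p6 (250 bases before to 50 after the start) were searched on both strands for the element's letters, CCAAT followed after 9 bases by CCACG. They occurred in 9 of the 27 list genes with a promoter in the table (33.3%) and in 37 of all 27025 genes (0.137%). The list was made up of genes known for this response, so its share was fixed by that choice and does not bear on CSH. The same holds for the shares of promoter letters given for other lists below. Windows of 49 bases around the match are shown on the gene's strand for the 4 genes with the largest differences and the 2 with the smallest, chosen after the values were seen. Capitals mark both parts of the element, which read CGTGG and ATTGG where the match is on the opposite strand.
Creld2 (chr15:88819505-88819553, plus strand): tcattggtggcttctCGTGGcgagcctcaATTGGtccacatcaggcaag
Calr (chr8:84847060-84847108, minus strand): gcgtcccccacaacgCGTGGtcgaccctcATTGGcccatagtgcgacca
Hspa5 (chr2:34772010-34772058, plus strand): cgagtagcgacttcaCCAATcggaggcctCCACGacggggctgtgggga
Dnajc3 (chr14:118937812-118937860, plus strand): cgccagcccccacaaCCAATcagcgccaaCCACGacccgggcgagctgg
Ero1b (chr13:12565667-12565715, plus strand): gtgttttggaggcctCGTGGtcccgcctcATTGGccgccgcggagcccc
Syvn1 (chr19:6046517-6046565, plus strand): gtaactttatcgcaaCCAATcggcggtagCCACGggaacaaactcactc

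Hspa5, the main chaperone of the compartment, read 14.51, 14.29 and 14.36 in SCR medium and 14.11, 13.80 and 14.17 with CSH, a difference of -0.36 (SE 0.11, 95% interval 0.658-fold to 0.923-fold, adjusted p = 0.686). All 3 CSH arrays were below all 3 SCR arrays. Calr, the lectin chaperone calreticulin, read 14.27, 14.18 and 14.15 against 13.98, 13.67 and 13.84 (-0.37, SE 0.12, adjusted p = 0.696). Creld2, a secreted protein of the stress response, read 13.05, 12.77 and 12.78 against 12.56, 12.23 and 12.55 (-0.42, SE 0.15, adjusted p = 0.761). CSH replicate 2 was the lowest array for all 3 genes, and without it the differences were -0.25, -0.29 and -0.31. Dnajc3, a co-chaperone of Hspa5, differed by -0.34 (SE 0.12), with groups that overlapped. Hsp90b1 and Pdia6, which also carry the element, differed by -0.16 and -0.17 without overlap, and Canx by -0.10. The 9 genes with the element were all lower, with a median of -0.167, and 6 of them did not overlap; of the 18 list genes with a promoter and no match, 14 were lower, with a median of -0.0817, and 2 did not overlap. Ero1b and Syvn1, printed above, carry the same letters and differed by -0.04 and -0.02. Outside the list, 8 tested genes had a match, of which 5 stood lower and 3 higher, with a median of -0.0267 and 0 without overlap. The element's letters are a description of the promoter, and no binding was measured.

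In SCR medium Hspa5 stood 1.58 above normal medium, and with CSH 1.22 above it. Creld2 stood 1.23 and 0.81 above it and Calr 0.43 and 0.06. In KO medium, which was read against the same SCR arrays, Hspa5, Creld2 and Calr differed from SCR medium by 0.02, 0.11 and -0.07. By array, the list's median against the SCR group mean was 0.09, -0.06 and -0.02 on the SCR arrays and -0.02, -0.18 and -0.10 on the CSH arrays. CSH replicate 1 lay level with SCR replicate 4 and above SCR replicate 3, so the groups overlapped. Over the arrays left out in turn the median ran from -0.142 to -0.057, and the count of lower members from 29 without CSH replicate 1 to 21 without CSH replicate 2. Ero1a, the oxidase that recharges disulfide formation, Herpud1 and Dnajc10, both of ER-associated degradation, differed by -0.28, -0.20 and -0.24, and Herpud1 by -0.12 without CSH replicate 4. The sensor and factor genes Ern1, Atf6 and Xbp1 differed by -0.04, 0.00 and -0.05, each by less than its SE.

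**Figure D4:**
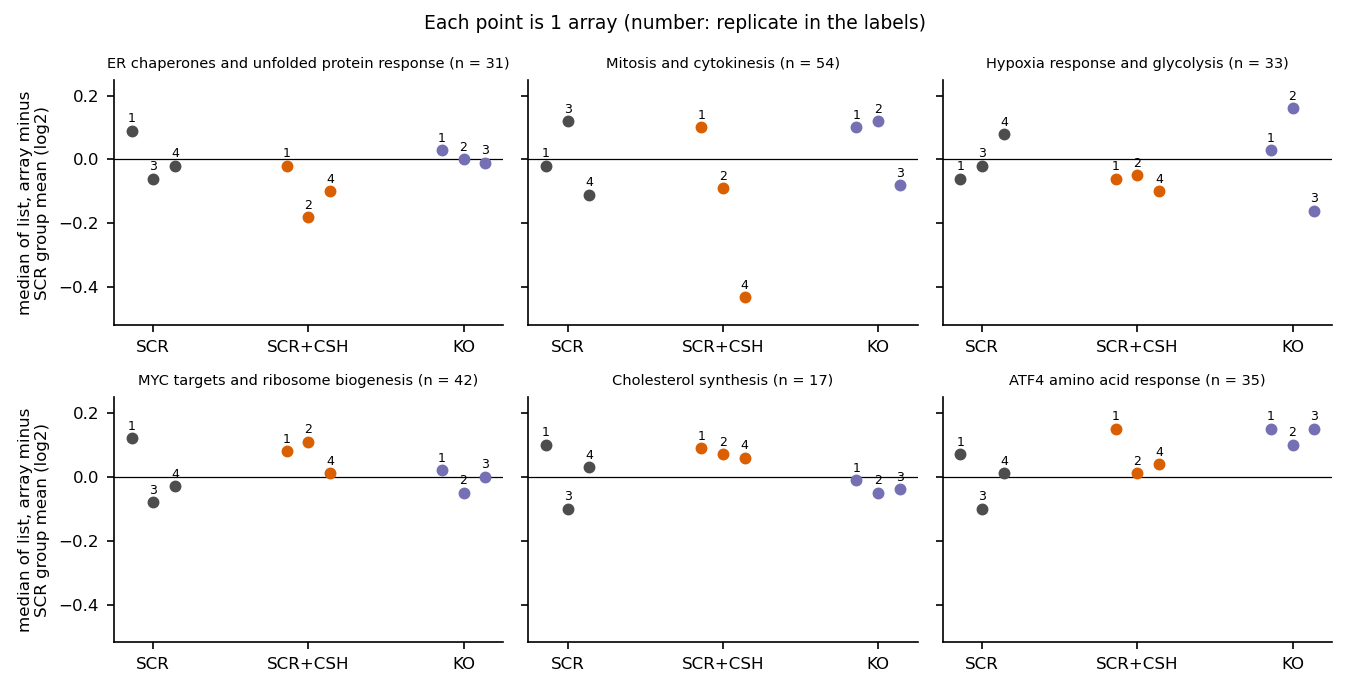
Median of each list's tested genes on 1 array minus the SCR group mean (log2), for the arrays of SCR medium, SCR medium with CSH and KO medium; numbers are replicates. In the ER list CSH replicates 2 and 4 lie below all SCR arrays, while in mitosis CSH replicate 4 lies at -0.43 and the other CSH arrays within the range of the SCR arrays.

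The ATF4 amino acid response, another arm of the stress response, stood on the other side, with 28 of 35 tested genes higher and 7 lower and a median of 0.067. Shmt2, mitochondrial serine hydroxymethyltransferase, read 12.66, 12.33 and 12.39 in SCR medium and 12.92, 13.02 and 12.51 with CSH (0.36, SE 0.14, adjusted p = 0.763), with overlap. Slc3a2, the heavy chain of amino acid transporters, read 13.29, 13.09 and 13.28 against 13.46, 13.33 and 13.43 (0.19, SE 0.08, and 0.12 without SCR replicate 3). Atf5 and the cysteine tRNA synthetase gene Cars differed by 0.18 and 0.14, both without overlap. In the list 4 genes (11.4%) lay higher without overlap and 0 lower, beside 5.49% and 3.09% of all genes. Without SCR replicate 3, which was low for this list, 21 stood higher and 14 lower, with a median of 0.015.

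Genes of ribosome biogenesis, many of them targets of MYC, stood higher in 34 of 42 cases, with a median of 0.083. Nop2, a ribosomal RNA methyltransferase, read 10.74, 10.20 and 10.64 in SCR medium and 10.79, 10.89 and 10.76 with CSH (0.29, SE 0.12, adjusted p = 0.771). Pa2g4 read 13.77, 13.62 and 13.70 against 13.84, 14.10 and 13.83 (0.23, SE 0.09, and 0.14 without CSH replicate 2), and Noc4l 8.05, 7.92 and 7.95 against 8.26, 8.09 and 8.14 (0.19, SE 0.06). Of the 42, 6 (14.3%) lay higher without overlap and 0 lower, beside 5.49% and 3.09% of all genes. The interval of every one was within 1.5-fold, as for 98.3% of all genes. Much of the difference in Nop2 lay in SCR replicate 3, without which it was 0.12. The list's median stayed between 0.037, without SCR replicate 3, and 0.122, without SCR replicate 1. The E-box letters CACGTG, to which MYC binds, were in the promoters of 9 of 36 list genes (25%) and of 8.09% of all genes. The share was 18.5% in the ER list, 16.1% in the hypoxia list and 10.9% in the mitosis list, which stood mostly lower. In the CREB and cAMP list, also mostly lower, it was 36.4% (4 of 11 genes, with 24 promoters). Oxidative phosphorylation and cytosolic ribosomal protein genes also stood mostly higher, 30 of 41 and 18 of 25, with medians of 0.043 and 0.030, but after quantile normalization these medians were -0.005 and -0.017.

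Mitosis genes had the largest median, in size, of the lists by function, but no gene that separated the groups. Of 54 tested genes, 51 stood lower with CSH and 3 higher, with a median of -0.145. Yet 0 had groups that did not overlap and 0 an unadjusted p below 0.05. Over all genes, 5.49% lay higher and 3.09% lower without overlap, and 4.08% and 2.15% had such a p. Mki67, the proliferation marker Ki-67, read 13.20, 13.55 and 13.14 in SCR medium and 13.33, 13.28 and 12.53 with CSH. Plk1, the mitotic kinase, read 10.09, 10.38 and 9.83 against 10.21, 9.81 and 9.31. In both genes CSH replicate 4 was the lowest and SCR replicate 3 the highest of the 6 arrays. Nusap1 and Kif4, a spindle protein and a chromosome-bound kinesin, differed by -0.39 (SE 0.20) and -0.33 (SE 0.15), or by -0.16 and -0.15 without CSH replicate 4. The list's median was 0.12, -0.02 and -0.11 on SCR replicates 3, 1 and 4, and 0.10, -0.09 and -0.43 on CSH replicates 1, 2 and 4. Without CSH replicate 4 it was 0.003, with 25 members lower and 28 higher, and without CSH replicate 1 it was -0.262. The letters TTTGAA, the core of the cell cycle genes homology region, were in a promoter of 31 of 46 list genes (67.4%) and of 20.2% of all genes. DNA replication genes did not stand lower with them: 30 of 42 stood higher and 12 lower, with a median of 0.038, although without CSH replicate 2 the counts were 18 and 24 and the median -0.012.

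Hypoxia response and glycolysis genes stood lower in 25 of 33 cases, with a median of -0.083. Pgk1, phosphoglycerate kinase, read 15.48, 15.58 and 15.56 in SCR medium and 15.40, 15.38 and 15.45 with CSH (-0.13, SE 0.05, adjusted p = 0.753). Ndrg1, a strongly hypoxia-induced gene, differed by -0.21 (SE 0.08) and the oxygen sensor gene Egln1 differed by -0.22 (SE 0.12). With Vegfa and Kdm3a, 5 list genes (15.2%) lay lower without overlap and 0 higher, beside 3.09% and 5.49% of all genes. The letters ACGTG, the core of the hypoxia response element, were in a promoter of 24 of 31 list genes (77.4%) and of 21.8% of all genes. A gene counted if any of its promoters matched, and the 31 genes had 47 promoters, while all 27025 had 32851. The share was 48.1% in the ER list, 38.9% in the MYC target list and 32.6% in the mitosis list. In the CREB and cAMP list it was 54.5% (6 of 11 genes, with 24 promoters). Over the arrays left out in turn the median ran from -0.125 to -0.047, and with the replicate number as a block it was -0.155. In the CREB and cAMP list, 12 of 16 stood lower and 4 higher, with a median of -0.080 that ran from -0.110 without SCR replicate 3 to -0.035 without SCR replicate 1. In that list 4 (25%) lay lower without overlap and 1 (6.25%) higher, beside 3.09% and 5.49% of all genes. Vegfa is also among these 4, so the hypoxia and CREB counts are not separate. Per2, a clock gene, and Dusp1, a MAP kinase phosphatase, differed by -0.18 each (SE 0.07 and 0.08), both without overlap. Arg1, arginase 1, read 6.63, 6.98 and 7.13 against 6.45, 6.76 and 6.63 (-0.30, SE 0.13, adjusted p = 0.781). It overlapped, its level was low, and the difference was -0.19 without SCR replicate 4.

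Antigen presentation and interferon genes divided. In the class I pathway 10 of 14 stood higher and 4 lower, with a median of 0.070 that was 0.025 without SCR replicate 3, 0.137 without SCR replicate 1 and 0.035 after quantile normalization. Of the 14, 3 (21.4%) lay higher without overlap and 4 (28.6%) lower, beside 5.49% and 3.09% of all genes. H2-M3, a class I molecule that presents formylated peptides, read 13.08, 13.11 and 13.00 in SCR medium and 13.16, 13.33 and 13.28 with CSH (0.19, SE 0.06, adjusted p = 0.665), and Tap1 and Psmb9 stood higher without overlap by 0.14 and 0.09. The 4 lower members were Calr, Canx and Pdia3, which are also in the ER list, and the peptidase gene Erap1 (-0.18, SE 0.07). In the interferon list 16 of 24 stood lower, with a median of -0.050, and without SCR replicate 1 the counts were 12 and 12 with a median of -0.013. Bst2 stood higher by 0.29 (SE 0.10), with overlap. No interferon gene separated the groups (0.0% either way, beside 5.49% higher and 3.09% lower of all genes).

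Genes with a large response to tumour cell medium were then read in this comparison. They were chosen on KO medium against normal medium, 6 arrays that do not enter the CSH and SCR means, although the fit's spread and the filter draw on all 12, as genes with adjusted p below 0.05 and at least 2-fold: 390 (2.15%) were higher and 355 (1.95%) lower in KO medium. Of the 390, 265 stood lower with CSH and 121 higher, with a median of -0.063, and 38 (9.74%) lay lower without overlap, where the share over all genes was 3.09%. Of the 355, 222 stood higher with CSH and 132 lower, with a median of 0.040, and 28 (7.89%) lay higher without overlap, where the share over all genes was 5.49%. Both medians were small beside the choice itself: the same 390 genes had a median of 1.31 in KO medium against normal medium, and the 355 a median of -1.35.

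The sizes differed between arrays. For the 390 genes the median against the SCR group mean was 0.02, -0.17 and -0.04 on CSH replicates 1, 2 and 4, and 0.11, -0.11 and 0.02 on SCR replicates 1, 3 and 4, so that only CSH replicate 2 lay outside the SCR arrays. For the 355 genes it was 0.08, 0.15 and -0.10 on the CSH arrays and -0.02 to 0.01 on the SCR arrays. Without CSH replicate 2 the medians were -0.011 and -0.015, so the direction of the lowered genes turned; with the replicate number as a block it was -0.012 for the lowered genes. Among the genes of this response that moved most in KO medium, Osbp2, an oxysterol-binding protein gene, read 10.17, 9.89 and 9.97 in SCR medium and 9.86, 9.49 and 9.90 with CSH (-0.26, SE 0.12, and -0.13 without CSH replicate 2). Plaur, the urokinase receptor gene, differed by -0.02 (95% interval -0.30 to 0.26) and Tgm2, tissue transglutaminase, by 0.01 (-0.20 to 0.22). Ephx1, microsomal epoxide hydrolase, which stood at 13.01 in normal medium, read 9.43, 9.43 and 9.56 in SCR medium and 9.80, 9.76 and 9.59 with CSH (0.24, SE 0.11, adjusted p = 0.784). Cybb, the catalytic subunit of the phagocyte oxidase that formyl peptide receptors activate, stood at 15.74 in normal medium and read 12.99, 13.31 and 13.51 in SCR medium and 13.55, 14.22 and 13.26 with CSH (0.41, SE 0.20, 0.14 without CSH replicate 2). Of the other 7 tested genes of the phagocyte oxidase and granule list, 6 stood higher with CSH, Ncf1 by 0.19. No gene of that list separated the groups (0.0% either way, beside 5.49% higher and 3.09% lower of all genes).

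**Figure D5:**
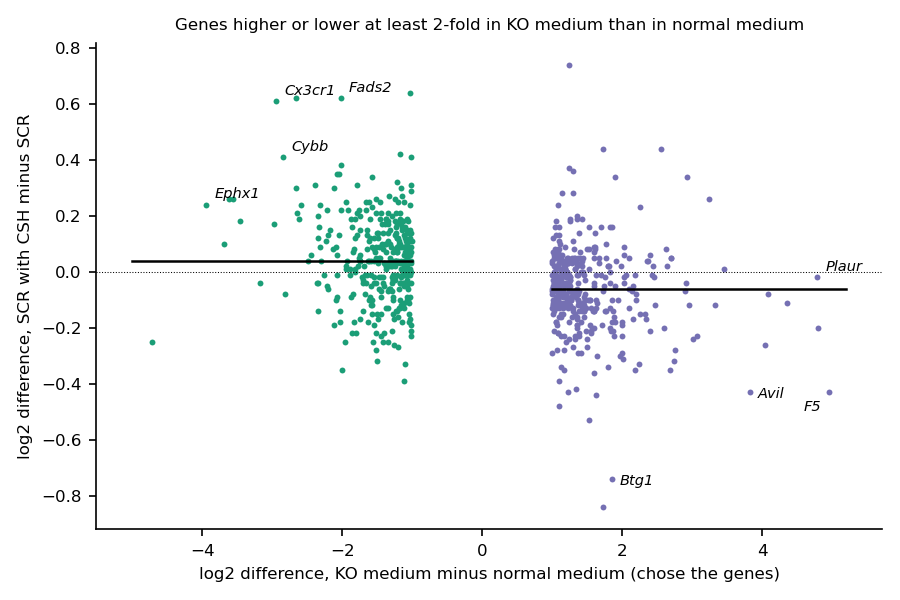
Difference of SCR medium with CSH minus SCR medium (log2, vertical) for the 745 genes at least 2-fold higher (right, 390) or lower (left, 355) in KO medium than in normal medium (log2, horizontal); black lines are medians. The medians are -0.063 on the right and 0.040 on the left, and most genes lie between -0.3 and 0.3 whatever their horizontal place.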

How the data were processed

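RNA of 12 samples was measured on Affymetrix arrays, 1 array a sample. The deposited values are log2 signals that the authors made with RMA in Affymetrix Expression Console on build mm10, per the submitters' processing notes; no version or batch step was found in the labels. Of 65528 probe sets, 31196 had 1 gene symbol, 1300 several and 33032 none in the platform table. The probe set with the highest mean stood for each of 30552 genes, and the 18178 above the array's median of all probe sets on at least 3 arrays were tested. Differences came from limma 3.58.1 (R 4.3.3; lmFit on all 12 arrays with a term for group alone, then eBayes with a trend on intensity; 8 degrees of freedom were residual), with Benjamini-Hochberg adjustment over all genes tested and 95% intervals. The fit was tested on simulated data. Lists are described by counts and medians without a test.

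Genes named were drawn from the 10 with the smallest p and the 10 largest differences each way at unadjusted p below 0.05 without overlap. They were also drawn from up to 4 members of each list with the smallest p and the 10 largest rises and falls in KO medium against normal medium. All annexin A1 pathway genes and a short panel were further sources. Not every gene of these sources is named. Others were named after their values were seen, for their size, their list or their promoter letters. Predicted genes, microRNAs, small nucleolar RNAs and pseudogenes were counted, not named. The members and lists were chosen with earlier results of these data known. Alternatives were other normalizations, filters and variance models, blocks, the 6 arrays alone and each array left out. Figures used matplotlib 3.10.9.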

Additional observations from a re-analysis of the deposited data

How the results depend on the processing

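No setting that left out an array gave a gene past the adjusted threshold, and neither did quantile normalization, median centring, other filters, no intensity trend, the mean of probe sets or the 6 arrays alone. Array weights gave 51 such genes and 3438 with an unadjusted p below 0.05, but their estimate did not converge and gave SCR replicate 4 a weight of 6.04 against 0.394 for SCR replicate 3; the cause was not tested. An adjusted p below 0.1 gave 1 gene, Cahm, and so did a random replicate block. With the replicate block, 0 genes passed and 1302 had an unadjusted p below 0.05. The groups share only the numbers 1 and 4, whose deviations correlated at 0.294 and 0.006. With 30552 genes and no filter, 2383 did not overlap and 30071 had an interval within 1.5-fold. All probe sets one by one, an alternative chosen after seeing the data, gave 0 called and 2515 with an unadjusted p below 0.05, from more features tested. Leaving out 1 array gave 768 to 1624 genes with an unadjusted p below 0.05, 2447 to 4063 without overlap, from fewer arrays, and 17586 to 17729 within 1.5-fold. Of 237 named genes, 183 kept their sign under all 16 settings, and of 37 list medians 18 did. The other filters, no intensity trend and the 6 arrays alone leave the difference of a gene as it is, so they could not turn its sign. Many named genes were also chosen for a small p or a large difference on these arrays, so a kept sign is no independent support. With 3 arrays a group, a lone gene with the median SE and a difference below 1.54-fold could not be called.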

Other observations

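Lists of myeloid effector genes not described above were divided as well. Among efferocytosis and scavenger receptors, 10 of 23 tested genes stood higher with CSH and 11 lower. Gas6, the ligand of the TAM receptors, stood at 0.30 and the integrin gene Itgb3 at 0.26, both without overlap (8.70%, beside 5.49% of all genes). On the other side Cd36 differed by -0.30, also without overlap (4.35%, beside 3.09% of all genes). Among chemotaxis receptors and migration genes, 10 of 18 stood higher and 6 lower. Itgal, the alpha chain of LFA-1, the integrin that binds ICAM-1, stood higher by 0.22 without overlap. C3ar1, the receptor of the complement fragment C3a, differed by -0.21, also without overlap. These were 5.56% of the list higher and 5.56% lower, beside 5.49% and 3.09% of all genes. In prostaglandin and leukotriene synthesis, Alox15, a lipoxygenase that makes precursors of lipoxins, differed by -0.25 without overlap. Ltc4s, leukotriene C4 synthase, differed by 0.38 with overlap. In that list 7.69% lay lower without overlap and 0.0% higher, beside 3.09% and 5.49% of all genes. None of these genes passed the adjusted threshold.

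The list of JmjC domain genes also holds Kdm1a, a histone demethylase gene without that domain. Of its 27 tested genes, 20 stood lower with CSH and 6 higher, with a median of -0.047. Kdm4c, a histone demethylase, differed by -0.14 and Phf2 by -0.08, both without overlap. In all, 4 (14.8%) lay lower without overlap, beside 3.09% of all genes, and the median was -0.088 without SCR replicate 3 and -0.025 without SCR replicate 1. Jmjd6 in the RAW264.7 cells differed by -0.13 (SE 0.12), with 9.75, 9.87 and 9.90 in SCR medium and 9.78, 9.67 and 9.67 with CSH. The NRF2 targets were divided, 9 higher and 10 lower of 19, and the 7 tested heat shock genes stood higher in 6 cases by no more than 0.13.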
